A study of Mus musculus with 13 samples.

Results

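Ifitm genes encode small membrane proteins that interferons induce and that hinder the entry of many enveloped viruses into cells. Their levels were read across the cell types of the mouse liver during cholangitis caused by 3,5-Diethoxycarbonyl-1,4-Dihydrocollidine (DDC). The 4 genes described here, Ifitm1, Ifitm2, Ifitm3 and Ifitm6, were taken from the 7 Ifitm genes among the 55353 genes of the files. They were chosen by their raw UMIs (unique molecular identifiers, 1 for each captured RNA molecule) by cell type and diet day, and the value that led to the choice was the higher Ifitm1 of type 2 conventional dendritic cells (cDC2) at progression. Levels by cell type and all values of cDC2 are therefore given as a description, with no test. Across the 95563 barcodes with at least 1500 UMIs, Ifitm3 made up 74.3% of all Ifitm UMIs, Ifitm1 11.1%, Ifitm2 10.01% and Ifitm6 3.45%. The other family members had 9095 (Ifitm10), 2858 (Ifitm5) and 23 UMIs (Ifitm7).

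The animals were male C57BL/6J mice of 6 to 12 weeks with no introduced allele, and their chow held 0.1% DDC for the number of days that names a group (D3 stands for 3 days), while D0 mice received none. The atlas has 12 single-cell libraries, with 1 library of isolation protocol A and 1 of protocol B at each of D0 (steady state), D3 and D5 (onset), and D9, D19 and D25 (progression). A further library of protocol B, STOP, came from mice that had 18 days of DDC (19 in its group label) and then 7 days of recovery. The D19 library of protocol B is labelled D18 in its group field. Protocol A pooled equal parts of all live singlets, leukocytes (Cd45+), epithelium (Epcam+), Lyve-1+ endothelium, Cd31+ Lyve-1- endothelium, Pdpn+ cells and retinoid-autofluorescent cells, and protocol B sorted live cells of a stellate cell preparation, Cd45+ Itgax+ Cd64-, Epcam+ and Cd3e+ Lyve-1- cells. The labels do not say which or how many mice went into a library, so every SD and p-value measures the spread between libraries. Shares of a cell type reflect these sorts and were not compared.

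Libraries held between 29307190 and 108602421 UMIs and between 1541 and 14764 cells, and any 2 libraries shared 0.0459% to 0.519% of the smaller one's barcodes. Clustering without the Ifitm and interferon genes gave 67 clusters, of which those with the markers of 17 cell types held 82858 cells, and 12705 cells stayed unnamed. A name ends in -like because it rests on marker genes. The 5906 cDC2-like cells were clusters 5, 34 and 38, in which 7, 5 and 7 of the 8 cDC2 markers were detected. All 8 had a UMI in these cells in every atlas library, as they also did in the biliary epithelial-like cells of D0 A. Levels are given as CPM, the UMIs of a gene per 1000000 UMIs of the summed cells of a type in a library, for libraries with at least 20 such cells. UMIs of this 3′ assay count molecules and are not scaled by gene length.

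In the mouse, several Ifitm genes lie side by side on chromosome 7, and type I interferons and interferon gamma act on such genes through STAT and IRF factors that bind short DNA elements. The 4 genes lie within chr7:140954837-141017924 (GRCm38, GENCODE M21). Ifitm2 spans 140954837 to 140955987 on the minus strand, Ifitm1 140967221 to 140969825 on the plus strand, Ifitm3 141009586 to 141010770 on the minus strand and Ifitm6 141015699 to 141017924 on the minus strand. Ifitm2 and Ifitm3 have 2 exons, and the transcripts of Ifitm1 and Ifitm6 have 2 or 3.

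Their promoters are shown because interferons are known to induce the family. The sequences are the 100 bases before 1 annotated RefSeq start per gene in GRCm38.p6, 5′ to 3′ on the gene's strand. Capitals mark matches to the interferon-stimulated response element (ISRE), searched as GAAANNGAAA on both strands.
Ifitm1, chr7:140967976-140968075, plus strand: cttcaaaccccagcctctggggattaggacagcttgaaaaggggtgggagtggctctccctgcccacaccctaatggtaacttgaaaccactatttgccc
Ifitm2, chr7:140955962-140956061, minus strand: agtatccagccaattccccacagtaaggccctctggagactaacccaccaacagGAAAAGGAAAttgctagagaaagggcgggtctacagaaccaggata
Ifitm3, chr7:141010745-141010844, minus strand: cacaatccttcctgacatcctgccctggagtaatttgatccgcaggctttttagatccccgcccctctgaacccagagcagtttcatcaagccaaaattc
Ifitm6, chr7:141016893-141016992, minus strand: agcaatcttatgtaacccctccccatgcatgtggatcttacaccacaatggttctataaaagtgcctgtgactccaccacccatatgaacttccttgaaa

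In windows from 250 bases before to 50 bases after the start, Ifitm2 had 1 ISRE match, which begins 46 bases before the start. Ifitm3 had 2, both within the first bases after its start and shown in capitals here.
Ifitm3, chr7:141010715-141010744, minus strand: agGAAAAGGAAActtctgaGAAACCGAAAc
The windows of Ifitm1 and Ifitm6 held none. Both genes have 3 transcripts, these windows lie inside the gene spans given above, and the other starts were not searched. Of 32851 RefSeq promoter windows of this length 3.44% held a match. The gamma-activated site (GAS), searched as TTCNNNGAA on both strands, was found once in Ifitm6, 10 bases before the start, and once in Ifitm3, 14 bases after the start, where it overlaps the second ISRE match. It was present in 8.30% of windows. These are matches of letters in these windows and show nothing of binding.

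The order of cell types differed between the members. Ifitm3 was the most widely present, with the highest mean in monocyte-like cells (3397 ± 1642 CPM, SD, n = 7 libraries), followed by cDC2-like cells (2071 ± 633, n = 12), stellate- or fibroblast-like cells (2029 ± 452, n = 7), large-vessel endothelial-like cells (1643 ± 517, n = 10) and liver sinusoidal endothelial-like cells (LSEC-like, 1337 ± 651, n = 12). The lowest means were those of T-like cells (52.2 ± 30.8, n = 11) and NK- or ILC1-like cells (50.4 ± 29.1, n = 12). Ifitm1 was concentrated in fewer types. It was highest in neutrophil-like cells (848 ± 778, n = 11), stellate- or fibroblast-like cells (675 ± 124, n = 7) and cDC2-like cells (578 ± 440, n = 12), and the next type, cDC1-like cells, had 126 ± 77.4 (n = 12). Monocyte-like cells, first for Ifitm3, had 52.5 ± 26.7 CPM of Ifitm1 (n = 7).

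Ifitm6 was the most myeloid of the 4. Its mean was 583 ± 243 CPM in monocyte-like cells (n = 7), 228 ± 126 in cDC2-like cells (n = 12) and 126 ± 105 in neutrophil-like cells (n = 11), against 1.82 ± 1.89 in LSEC-like cells (n = 12). Ifitm2 had the flattest profile, with 301 ± 215 CPM in neutrophil-like cells (n = 11), 276 ± 170 in monocyte-like cells (n = 7) and 266 ± 237 in LSEC-like cells (n = 12). For each of the 4 genes, every type overlapped with the next type in the order in its range over libraries. Next neighbours differed by more than 1 SD only between cDC2-like and cDC1-like cells for Ifitm1, hepatocyte-like and B-like cells and mature DC-like and plasmacytoid DC-like cells for Ifitm3, and monocyte-like and cDC2-like cells and Kupffer-like and macrophage-like cells for Ifitm6. Of the UMIs summed over the atlas, which depend on how many cells of each type the sorts delivered, cDC2-like cells held 44.9% for Ifitm1 and 46.5% for Ifitm6, and LSEC-like cells 36.3% for Ifitm2 and 22.3% for Ifitm3.

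**Figure D1:**
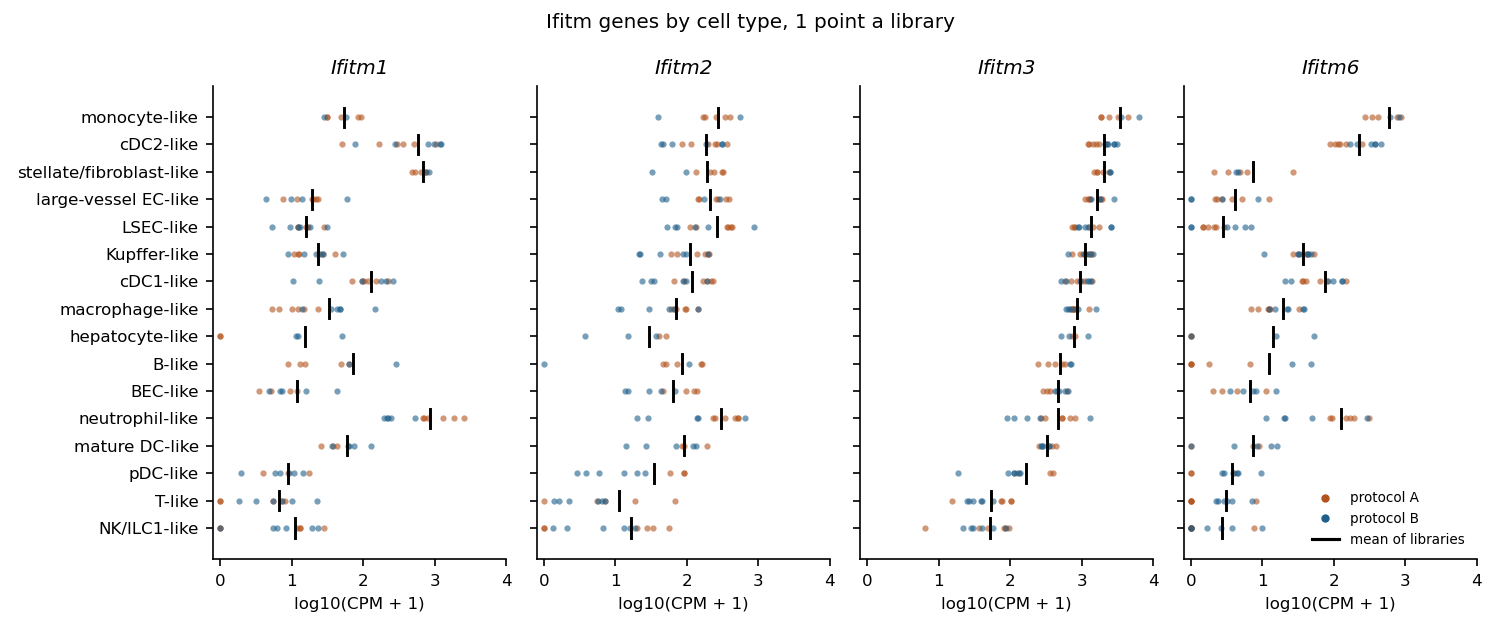
Levels of each gene by cell type, on a log10 scale of CPM + 1, with 1 point for each atlas library with at least 20 cells of the type (brown, protocol A; blue, protocol B) and a bar at the mean. Ifitm3 is high in most types, with T-like and NK- or ILC1-like cells lowest, while Ifitm6 runs from 583 CPM in monocyte-like to 1.72 CPM in NK- or ILC1-like cells.

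The share of cells with at least 1 UMI gave a similar picture and moves with depth. For Ifitm3 it was on average 96.9% of cDC2-like cells per library and 14.4% of T-like cells, and 83.4% and 6.81% after the expected loss when every cell is reduced to 1500 UMIs. Ifitm1 was seen in 49.3% of cDC2-like cells (28.9% at 1500 UMIs) and in 2.08% of T-like cells (0.784%). Ifitm6 was seen in 69.6% of monocyte-like cells (45.7%) and 0.964% of LSEC-like cells (0.284%). Median UMIs per cell lay between 5035 and 16526 in cDC2-like cells, 2127 and 7048 in T-like cells, 3200.5 and 8775.5 in monocyte-like cells and 2418 and 9466 in LSEC-like cells, depending on the library. Free RNA also carried these genes, since barcodes of 10 to 100 UMIs had between 42.7 (D0 A) and 604 CPM (D5 B) of Ifitm1, and its part in the low shares was not tested.

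Ifitm1 in cDC2-like cells, the value that led to the choice of the family, was lowest at steady state. It had 50.01 CPM in D0 A and 74.9 in D0 B. At onset it was 511 in D3 A, 275 in D3 B, 1049 in D5 A and 1185 in D5 B. At progression it was 353 in D9 A, 978 in D9 B, 162 in D19 A, 1212 in D19 B, 294 in D25 A and 793 in D25 B. Every atlas library on DDC was above both steady-state libraries, and onset and progression overlapped throughout. By stage the means were 62.4 ± 17.6 CPM (SD, n = 2), 755 ± 433 (n = 4) and 632 ± 423 (n = 6). The log2 fold change of progression against steady state, with the protocol as a term of the edgeR model, was 3.07, and of progression against onset -0.64, which was -1.50 in protocol A alone and 0.36 in protocol B alone. All 6 progression libraries exceeded both steady-state libraries in 7.71% of the 11537 genes fitted, and 1.33% of these genes had a higher log2 fold change than Ifitm1. These values belong to the contrast that chose the gene.

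The higher level was present in both protocols from D3 onwards. Protocol B exceeded protocol A on 5 of 6 days for Ifitm1, and D0 A rests on 25 cDC2-like cells with 12 Ifitm1 UMIs. Expressed as cells with a UMI, Ifitm1 was seen in 14.3% of the 883 cDC2-like cells of D0 B (95% exact binomial interval 12.0% to 16.8%) and 73.0% of the 653 of D19 B (69.5% to 76.4%). After reduction to 1500 UMIs these shares were 6.41% and 52.0%. Intervals of single libraries cover counting error only.

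The other 3 members had smaller differences than Ifitm1 in cDC2-like cells. Ifitm3, the broadest antiviral member of the family, had 1267 and 2811 CPM in D0 A and D0 B, 1762 to 2328 at onset and 1223 to 3104 at progression, with all stages overlapping. Its log2 fold change of progression against steady state was -0.09, beside an all-gene median of 0.01. Ifitm2 had 83.3 and 305 CPM in D0 A and D0 B, between 61.7 and 364 at onset and between 42.5 and 306 at progression, with a log2 fold change of -0.73. Ifitm6 had 87.5 and 208 CPM, 115 to 335 and 103 to 452, with a log2 fold change of 0.62. Within each protocol every progression library of Ifitm6 was above its own D0 library, with 148, 121 and 103 CPM against 87.5 in protocol A and 371, 452 and 375 CPM against 208 in protocol B. The value of D0 A rests on 25 cells, of which 10 had a UMI of Ifitm6. Protocol B exceeded protocol A on 6 of 6 days for Ifitm3 and for Ifitm6, but on 2 of 6 for Ifitm2. Without D0 B the log2 fold changes of Ifitm2 and Ifitm3 were 1.71 and 0.61, so these 2 directions rested on 1 library. Among cDC2-like barcodes 51.5% carried UMIs of the leading markers of another lineage, and without them the log2 fold changes were 3.41 for Ifitm1, -1.61 for Ifitm2, -0.63 for Ifitm3 and 0.31 for Ifitm6.

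**Figure D2:**
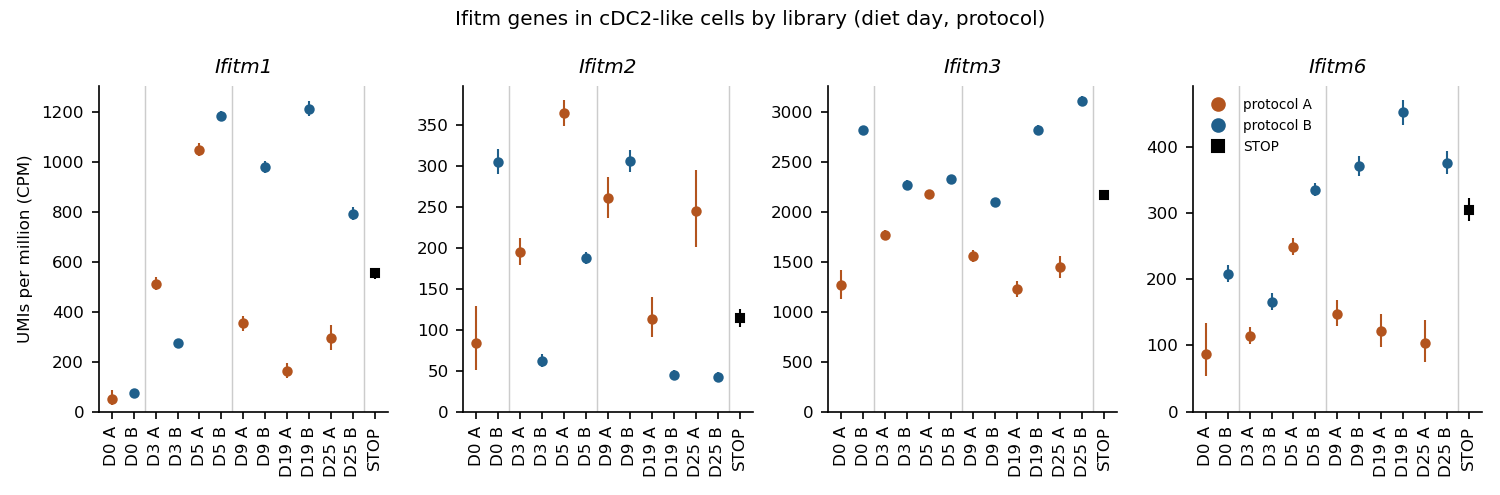
CPM of the 4 genes in cDC2-like cells for each library in order of diet day, with 95% Poisson intervals, protocol A in brown, protocol B in blue and STOP as a black square. Vertical lines separate steady state, onset, progression and STOP. Ifitm1 lies at 50.01 and 74.9 CPM at steady state and between 162 and 1212 CPM thereafter, while the stages of the other 3 genes overlap across the protocols. Ifitm6 at progression lies above D0 within each protocol, where D0 A rests on 25 cells.

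Within the cDC2-like cells, Ifitm1 varied by subset. The stages lay in different clusters, since 678 of the 883 cDC2-like cells of D0 B were in cluster 34 and 67 in cluster 5, whereas 638 of the 653 of D19 B were in cluster 5. This largest cluster (cluster 5, led by Tnip3, S100a4 and the MHC class II gene H2-Ab1) had 278 CPM of Ifitm1 in D0 B and 285 to 1234 CPM at progression, where D19 A (285 CPM) and D25 A (359 CPM) were close to D0 B and the protocol B libraries had 915 to 1234 CPM. Cluster 34, drawn mostly from D0 B (85.8% of its cells), had 66.8 CPM in D0 B and 804 in D5 B. Cycling cDC2-like cells (cluster 38, led by Top2a and Mki67) had 40.7 CPM in D0 B and 580 in D5 B. At progression cluster 38 had 87.0 CPM in D9 A, 506 in D9 B and 386 in D25 B. The part of the mix of clusters in the Ifitm1 difference of the whole class was not tested. Cells with no UMI of Mgl2, the gene of the lectin CD301b that marks a cDC2 subset, had more Ifitm1 than cells with Mgl2 in 8 of 10 atlas libraries, for example 1292 against 764 CPM in D19 B. The other members went the same way, Ifitm2 in 7, Ifitm3 in 8 and Ifitm6 in 9 of these 10 libraries. Cells with Ly6c2, a gene shared with monocytes, exceeded those without it in Ifitm1 in 3 of 7 libraries. For Ifitm2 and Ifitm3 this was 5 of 7 each, and for Ifitm6 1 of 7.

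A cluster of 1120 cells, led by Cd209d, Ly6c2, Plac8, Crip1, Ifi30, Vim, Ccr2, Siglech, Cd209a and Runx2, stayed unnamed and outside cDC2-like cells, because more of these genes are classical monocyte markers than cDC2 markers. It had 161 CPM of Ifitm1 in D0 B, 110 in D3 B, 867 in D5 A, 870 in D5 B and 785 to 1034 in the protocol B libraries of progression, so that D3 B was not above D0 B. Counting it as cDC2-like moved the log2 fold change of Ifitm1 from 3.07 to 2.78. In cDC1-like cells Ifitm1 had 67.7 CPM in D0 A and 9.29 in D0 B, between 22.7 and 222 at onset and between 94.7 and 257 at progression, so that progression lay above both D0 libraries there as well.

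Markers of other cells were counted beside these values. The 10 neutrophil markers summed to 27.9 and 45.8 CPM in cDC2-like cells of D0, between 21.1 and 143 at onset and 101 to 695 at progression. The 9 macrophage markers summed to 262 and 1071 CPM in the D0 libraries, between 138 and 554 at onset and between 311 and 9910 at progression, and the 8 classical monocyte markers to 751 and 1600, 910 to 1677 and 626 to 2011. Neutrophil markers and Ifitm1 of free RNA were thus also higher in most DDC libraries, and their part in the Ifitm1 level was not tested. At progression, neutrophil-like cells themselves had 48514 to 107081 CPM of these 10 markers and 196 to 1288 CPM of Ifitm1.

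The next question was whether any member differed by stage in cell types outside the cDC2 that led to the choice. Monocyte-like, neutrophil-like, LSEC-like, biliary epithelial-like (BEC-like) and T-like cells were fitted with edgeR's quasi-likelihood test over all genes, with Benjamini-Hochberg adjustment over all genes of a type and a threshold of 0.05. Raw UMIs of the members in these types by diet day were also read when the family was chosen. The p-values of the members are therefore not independent of that choice. At progression against steady state, 2 of the 20 pairs of member and cell type passed, Ifitm3 and Ifitm6 in neutrophil-like cells. Of all genes tested, 2.45% passed in neutrophil-like, 0.0858% in monocyte-like, 1.19% in LSEC-like, 3.92% in BEC-like and 1.4% in T-like cells. In the 4 other types 0 of 16 pairs passed, DESeq2 also called 0, and 1 pair was under an unadjusted p of 0.05. That pair was Ifitm6 in monocyte-like cells. Of all genes, 646 of 5826 were under that p in monocyte-like, 2173 of 12651 in LSEC-like and 2083 of 11480 in T-like cells. No such count is given for BEC-like cells, which have 1 steady-state library. At progression against onset 0 of 20 pairs passed in edgeR, with 6 at an unadjusted p under 0.05 and 0 called by DESeq2. That p was also met by 385 of 5826 genes in monocyte-like, 826 of 5917 in neutrophil-like and 1130 of 12651 in LSEC-like cells. It was met by 806 of 15087 genes in BEC-like and 477 of 11480 in T-like cells. In that comparison 0% of all genes passed in monocyte-like, neutrophil-like, BEC-like and T-like cells and 0.0949% in LSEC-like cells. The 2 comparisons share the progression libraries. Onset is 1 library, D5 A, in the monocyte-like fit, where its spread is assumed to be that of the other stages. In the BEC-like fit it is 2 libraries, D3 B and D5 B.

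**Figure D3:**
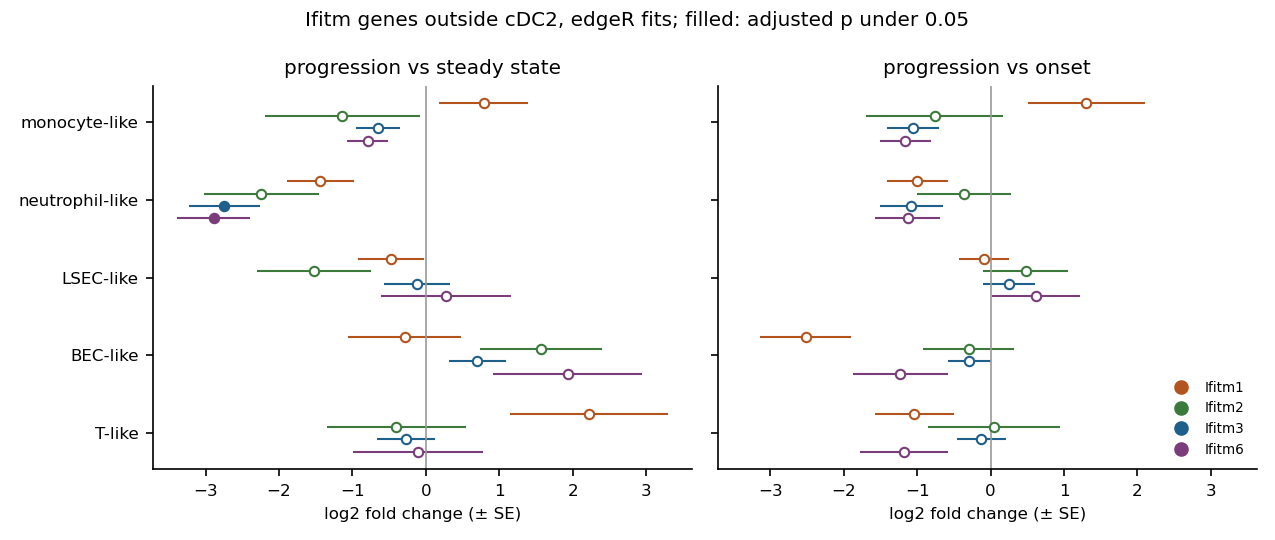
Log2 fold changes with their SE from the edgeR fits of the 4 genes in 5 cell types, progression against steady state on the left and against onset on the right. Filled points passed the adjusted p of 0.05, and these are Ifitm3 and Ifitm6 in neutrophil-like cells at progression against steady state.

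In neutrophil-like cells, Ifitm3 and Ifitm6 fell at progression. Ifitm3 had 797 CPM in D0 A and 1320 in D0 B. It was 689 in D3 A, 536 in D5 A and 255 in D5 B, then 524 in D9 A, 87.9 in D9 B, 269 in D19 A, 112 in D19 B, 302 in D25 A and 169 in D25 B. All progression libraries lay below both steady-state libraries, and protocol A was above protocol B on each progression day. The log2 fold change was -2.74 (SE 0.48, edgeR, adjusted p = 0.0168, lower in 6 of 6 progression libraries).

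Ifitm6 had 309 and 289 CPM in D0 A and D0 B. At onset it was 191 in D3 A, 170 in D5 A and 49.1 in D5 B, and at progression 149 in D9 A, 10.3 in D9 B, 92.5 in D19 A, 18.9 in D19 B, 88.1 in D25 A and 20.1 in D25 B. Again no progression library reached steady state, and the lowest values were those of protocol B. Its log2 fold change was -2.89 (SE 0.49, edgeR, adjusted p = 0.0143).

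Ifitm1 and Ifitm2 did not pass in neutrophil-like cells. Ifitm1 had 1882 and 525 CPM at steady state, 2592, 793 and 246 at onset and 196 to 1288 at progression, where the stages overlap (log2 fold change -1.44, SE 0.46, edgeR, adjusted p = 0.111). Ifitm2 had 341 and 647 CPM at steady state and 18.9 to 526 at progression (-2.24, SE 0.79, edgeR, adjusted p = 0.142), and in protocol A alone its log2 fold change had the opposite sign, 0.30. For Ifitm1, protocol A was above protocol B on 5 of 5 days.

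The levels in neutrophil-like cells moved with the mix of 2 clusters and with the protocol. Cluster 18 (led by Retnlg and S100a9, genes of mature neutrophils) and cluster 13 (led by Cxcl2, Ccrl2 and Il1b, genes of the inflammatory response) had different levels within a library. All 4 genes were higher in cluster 18 in 5 of 5 atlas libraries with at least 20 cells of each, all of protocol A, for example Ifitm6 with 285 against 18.4 CPM and Ifitm3 with 437 against 204 CPM in D19 A. Cluster 13 held 5.14% and 35.2% of the neutrophil-like cells in D0 A and D0 B, and 39.2% to 97.8% at progression. In cluster 18 alone the log2 fold changes were -0.55 for Ifitm3 and -0.18 for Ifitm6. Of the protocol B libraries of the atlas, only D0 B had at least 20 cells of cluster 18. With the protocol in the model, that fit therefore set progression against D0 A alone, within protocol A. Over both clusters the log2 fold changes without D0 B, which has 54 neutrophil-like cells, were -1.17 for Ifitm3 and -1.57 for Ifitm6. With at least 3000 UMIs a cell they were -1.15 and -1.17. The neutrophil-like cells of D0 B had a median of 1801 UMIs, so most of them fall below that floor. D0 B may then lack the 20 cells a library needs, which would leave D0 A as the only steady-state library of that fit. In protocol A alone the log2 fold changes were -1.13 and -1.51. In protocol B alone, where the Cd45+ gate took Itgax+ cells, they were -3.77 and -4.38. Leaving out D0 B and using either protocol alone each leave 1 steady-state library. Its spread is then assumed to be that of the other stages, so only effect sizes are given here for these fits, for the fit at 3000 UMIs and for cluster 18. The 10 neutrophil markers summed to 128550 and 134629 CPM at steady state and 48514 to 107081 CPM at progression, and their part in the result was not tested.

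**Figure D4:**
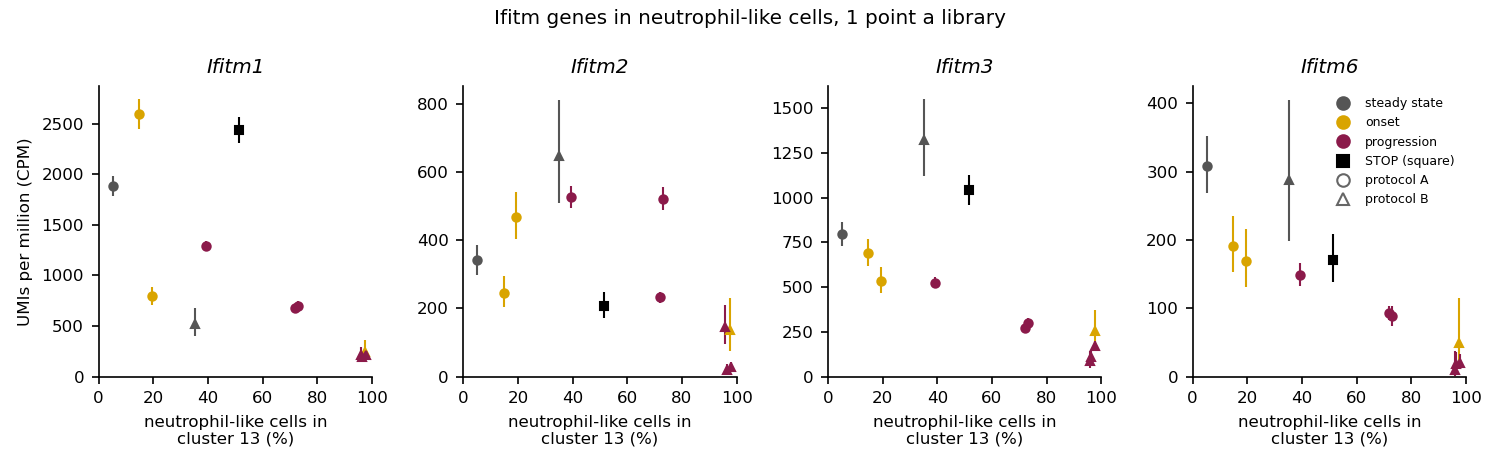
CPM of the 4 genes in neutrophil-like cells against the percentage of those cells in cluster 13, 1 point a library with 95% Poisson intervals, coloured by stage, with circles for protocol A, triangles for protocol B and a square for STOP. Progression libraries of protocol B sit at 95.8% to 97.8% of cluster 13 and at or below 217 CPM for each gene.

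Monocyte-like cells had the highest Ifitm3 and Ifitm6 of all types. They were 1 cluster with all 8 classical markers, and 8 of 9 nonclassical markers were detected in it as well. Ifitm6 had 760 and 824 CPM at steady state, 860 in D5 A and 409, 272, 337 and 619 at progression in D9 A, D19 A, D25 A and D25 B. The 4 progression libraries lay below the other 3, but the log2 fold change of -0.79 did not pass (SE 0.28, edgeR, adjusted p = 0.379), and it was 0.019 when each barcode was typed by its own markers. In the same cells the 10 neutrophil markers summed to 5908 and 25227 CPM at steady state and 1660 to 6038 at progression, and the 9 macrophage markers to 362 and 1222 CPM and 1814 to 4358 CPM, and their part was not tested. Ifitm3 had 3173 and 6416 CPM at steady state, 4502 in D5 A and 1835 to 3575 at progression (log2 fold change -0.65, SE 0.30, adjusted p = 0.469). Cells with more classical than nonclassical marker UMIs had more Ifitm6 than those with more nonclassical ones in 4 of 4 libraries with at least 20 of each, for example 897 against 706 CPM in D0 B and 352 against 240 CPM in D25 A.

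LSEC line the hepatic sinusoids and take up material from blood. Ifitm3 in LSEC-like cells had 779 and 2557 CPM in D0 A and D0 B, 814 to 1418 at onset and 727 to 2598 at progression, with all stages overlapping. The log2 fold change at progression against steady state was -0.12 (SE 0.45, edgeR, adjusted p = 0.938), and it was 0.93 without D0 B, which has 85 LSEC-like cells. Ifitm2 had 135 and 868 CPM, 70.8 to 374 and 52.5 to 422 (log2 fold change -1.52, SE 0.78, adjusted p = 0.337). Ifitm1 had 4.30 to 30.1 CPM in LSEC-like cells, below its 42.7 to 604 CPM in free RNA, and Ifitm6 had 0 to 5.94 CPM.

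BEC-like cells, the epithelium of the bile ducts that DDC injures, had 290 CPM of Ifitm3 in their only steady-state library D0 A, 484 and 634 at onset and 326 to 615 at progression. Progression lay above D0 A in all 6 libraries without passing the test (log2 fold change 0.70, SE 0.39, edgeR, adjusted p = 0.305). With 1 steady-state library, this test assumes that D0 A varies as the onset and progression libraries do. Ifitm1 was lower at progression (2.45 to 10.9 CPM) than in D3 B and D5 B (14.6 and 42.2 CPM), with a log2 fold change against onset of -2.52 (SE 0.62), an unadjusted p of 0.00204 and an adjusted p of 0.834. These values lie below the Ifitm1 of free RNA in the same libraries, which was 83.3 CPM in D3 B and 604 in D5 B and 50.9 to 221 at progression. In T-like cells, a type with little of the family, Ifitm3 had 75.9 and 39.5 CPM in D0 A and D0 B, between 14.1 and 72.0 at onset and between 25.6 and 100.4 at progression (log2 fold change -0.27, SE 0.40, adjusted p = 0.752).

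The interferon pathway was read from 3 lists, 12 receptors and signal transducers, 34 type I interferon-stimulated genes and 12 interferon gamma targets. At progression against steady state, the genes of the type I list that passed were lower in the 3 types of 2 steady-state libraries where any did, neutrophil-like, LSEC-like and T-like cells. In neutrophil-like cells 8 of the 24 tested fell and 0 rose, with a list median of -1.72 beside 0.06 for all genes. Of all 145 genes called in these cells 107 were lower, and the calls numbered 12 in protocol A alone and 10 with at least 3000 UMIs a cell. The share of cluster 13 in these cells moved with the stage as given above, and its part in the interferon genes was not tested. Across the 3 lists 9 fell there, led by Isg15, a ubiquitin-like modifier (log2 fold change -3.45, SE 0.66, edgeR, adjusted p = 0.0197), Rtp4 (-3.27) and Oas3, which senses double-stranded RNA (-3.04). Jak2, a kinase of the interferon gamma receptor, rose (1.90, SE 0.40, adjusted p = 0.0258).

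In LSEC-like cells 5 of 32 type I genes fell, beside 1.19% of all genes called, of which 84 of 151 were lower. They were Ifi44 (-2.05), Ifit3b (-1.77), Cmpk2 (-1.55), Herc6 (-1.10) and Sp100 (-1.05). In D0 A 2460 of the 3000 LSEC-like cells lay in cluster 10 (led by Hspa1b, Iigp1 and Gatm), which held at most 9 cells of a progression library. The 8 hepatocyte markers summed to 159 and 1013 CPM in LSEC-like cells at steady state and 183 to 354 CPM at progression. The 9 LSEC markers summed to 17843 and 23263 CPM at steady state and 10971 to 16674 at progression. The 9 macrophage markers summed to 25.8 and 154 CPM, then 155 to 409. The part of the clusters and of these markers in the calls was not tested. In BEC-like cells 5 of the 55 genes tested in the 3 lists passed, beside 3.92% of all genes, with lower Ifit1 (-2.22), Irf1 (-1.61), Irf9 (-1.28) and Phf11d (-1.21) and higher Ifngr2, a subunit of the interferon gamma receptor (1.19). These calls rest on the single steady-state library D0 A and carry no steady-state spread. Of its 785 BEC-like cells 651 lay in cluster 30 (led by Cp, Spp1 and Tm4sf4), which held 3.37% to 8.87% of these cells at progression. In D0 A the 8 hepatocyte markers summed to 6163 CPM in BEC-like cells, against 1077 to 1912 CPM at progression, and the part of both was not tested. In T-like cells 4 of the 53 genes tested in the 3 lists passed, beside 1.4% of all genes, and Oas1a (-3.10), Isg15 (-1.98), Irf7 (-1.61) and Bst2 (-1.28) fell. All of these passed edgeR's adjusted p of 0.05. DESeq2 called 2 genes of the lists as lower in T-like cells, and 124 of all 161 genes that edgeR called there were lower. D0 A had 68 T-like cells. The 8 hepatocyte markers summed to 17.0 and 505 CPM in T-like cells at steady state and 16.4 to 150 CPM at progression, and their part was not tested. In monocyte-like cells 0 of 44 tested genes of the 3 lists passed, with 17 at an unadjusted p under 0.05 (all lower) and 1 called by DESeq2. Among all genes of these cells, 646 of 5826 were under that p. At progression against onset 0 genes passed in any of the 5 types, with 56 of 245 pairs of gene and type at an unadjusted p under 0.05 (52 of them lower) and 2 called by DESeq2. The numbers of all genes under that p in each type are those given with the members above.

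In cDC2-like cells the same lists are a description. Of 34 type I genes, 7 had a log2 fold change above 0 at progression against steady state (median -0.56, all genes 0.01), and 0 had one above 0 against onset (median -0.56, all genes -0.02). Of the 10 interferon gamma targets fitted, 2 were above 0 in each comparison. Ifitm1 had 3.07 and -0.64 in these comparisons.

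Recovery was read from STOP beside the D19 library of protocol B, with 1 library for each, so that no test could be made. In cDC2-like cells Ifitm1 had 553 CPM in STOP (95% Poisson interval 530 to 577) and 1212 in D19 B (1182 to 1243), and both are above the 74.9 CPM of D0 B. Ifitm3 had 2162 and 2820 CPM and Ifitm6 305 and 452 CPM, whereas Ifitm2 was higher in STOP (114 against 44.8 CPM). This was not particular to cDC2-like cells, since D19 B had low Ifitm2 across many types, as given below. Ifitm2 was also higher in STOP in LSEC-like (207 against 52.5 CPM), BEC-like (56.0 against 14.0 CPM) and macrophage-like cells (56.6 against 11.1 CPM). It was lower only in plasmacytoid DC-like cells (3.67 against 4.81 CPM, with overlapping intervals). In neutrophil-like cells all 4 genes were higher in STOP. Ifitm1 had 2436 CPM in STOP (2309 to 2568) and 196 in D19 B (158 to 240), Ifitm3 1041 and 112 CPM, Ifitm6 171 and 18.9 CPM and Ifitm2 208 and 18.9 CPM, and cluster 13 held 51.4% and 96.3% of these cells. LSEC-like cells had 2564 CPM of Ifitm3 in STOP and 897 in D19 B. BEC-like cells had 721 and 418 CPM. Ifitm3 was thus higher in STOP than in D19 B in neutrophil-like, LSEC-like, BEC-like and T-like cells (74.4 and 28.8 CPM) and lower in cDC2-like cells. The lower level was not particular to cDC2-like cells, since cDC1-like cells had 948 CPM of Ifitm3 in STOP and 1333 in D19 B. In cDC1-like cells Ifitm1 (48.9 and 257 CPM) and Ifitm6 (39.4 and 131 CPM) were also lower in STOP, and Ifitm2 was higher (63.6 and 34.1 CPM). In STOP the 9 LSEC markers summed to 3031 CPM in BEC-like cells, against 453 to 1307 at progression. In cDC2-like cells they summed to 1915 CPM, against 354 to 881. In neutrophil-like and T-like cells they lay within their range at progression, and their part in the levels was not tested. The STOP level was within the range of the 6 progression libraries for cDC2-like Ifitm3 (1223 to 3104 CPM) and LSEC-like Ifitm3 (727 to 2598 CPM) and within that of the fitted libraries for T-like Ifitm3 (25.6 to 100.4 CPM). It was also within that range for cDC2-like Ifitm1, where D19 B is the highest atlas library. It was above the progression range for Ifitm1, Ifitm3 and Ifitm6 in neutrophil-like cells and for Ifitm3 in BEC-like cells. The intervals of single libraries cover counting error only.

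Ifitm2 shared more of its sequence with other genes than the other members did, and its UMIs varied by library. Of its 625 transcript 31-mers, the length kallisto uses by default to place reads, 347 (55.5%) also occur in another annotated gene, most often in Gm45717 (38.1%). For Ifitm3 this was 20.5% of 648, for Ifitm1 11.6% of 1075 and for Ifitm6 0 of 873. The similar predicted genes summed to at most 2.25 CPM in any library. How reads shared by genes were counted is not given in the sources used here, so levels of Ifitm2, and to a lesser extent Ifitm3 and Ifitm1, are uncertain to that degree. Ifitm2 and Ifitm3 lie on the same strand, and Ifitm1 lies between them on the other strand without overlap.

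Per 100 Ifitm3 UMIs, the cells of a library had between 1.59 (D25 B) and 33.5 (D25 A) Ifitm2 UMIs. The same spread appeared within a cell type, from 2.56 to 49.6 in LSEC-like cells and from 1.37 to 17.0 in cDC2-like cells, and in barcodes of 10 to 100 UMIs, from 1.35 in D25 B to 19.7 in D5 A. Protocol A exceeded protocol B on 5 of 6 days over all cells and on 6 of 6 days in the low barcodes. D19 B and D25 B were the 2 libraries with the lowest Ifitm2 in 7 of the 12 cell types with at least 8 libraries. The ratio thus varied with the library across cell types and in barcodes that were not cells, and Ifitm2 comparisons between stages carry this spread. Such ratios were not examined for Ifitm1 and Ifitm6.

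**Figure D5:**
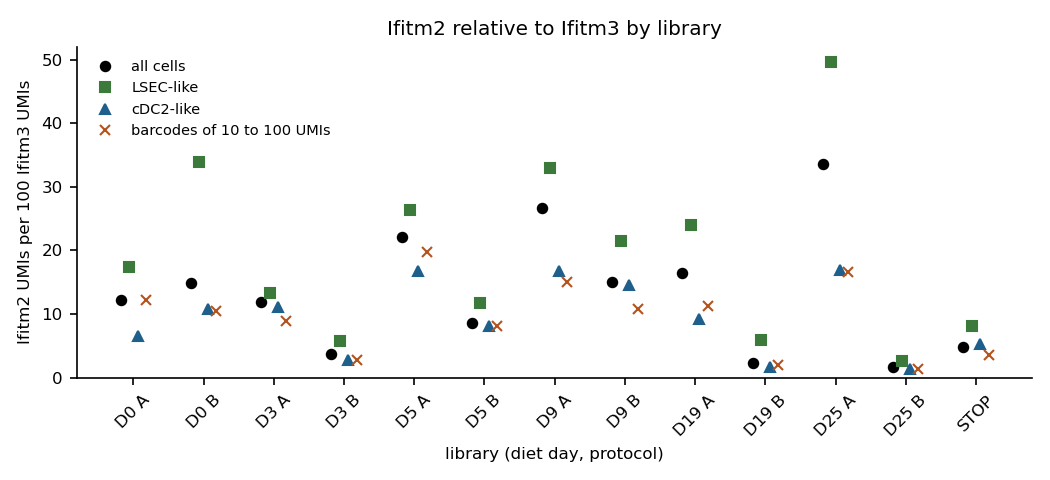
Ifitm2 UMIs per 100 Ifitm3 UMIs in each library in order of diet day, for all cells, LSEC-like cells, cDC2-like cells and barcodes of 10 to 100 UMIs. D19 B and D25 B are low in each of the 4 sets, at 2.33 and 1.59 over all cells, and D25 A is highest over all cells at 33.5.

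The genes most like each member were ranked by Pearson's r of log2(CPM + 10) over 156 sums of 16 cell types and the 12 atlas libraries, among 9062 genes. These sums share libraries and cell types, so r describes them and carries no p. Nearest to Ifitm1 were Il1r2 (0.78), Ptgs2 (0.76), Ggt5 (0.76), Gsn (0.69) and Il1b (0.67), which include genes of neutrophils and of stroma, the types where Ifitm1 was highest. Ifitm6 had the closest partners, with Gpr141 (0.89), Ltb4r1 (0.84), Skint3 (0.82), Card9 (0.80) and Plbd1 (0.80). For Ifitm3 they were Id3 (0.78), Ltbr (0.76), Ralb (0.76), Dusp3 (0.75) and Stom (0.75), and for Ifitm2 Marcksl1 (0.67), Spag9 (0.67), Il13ra1 (0.67), Mbnl2 (0.66) and Ralb (0.65). Among the members, r was highest for Ifitm2 with Ifitm3 (0.69) and lowest for Ifitm1 with Ifitm3 (0.40).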

How the data were processed

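Single-cell RNA libraries of mouse liver were made with the 10x Genomics 3′ v3.1 kit, single index for protocol A and dual index for protocol B. The authors deposited UMI counts per gene and barcode, which per the submitters' processing notes came from kallisto with GRCm38. The version, annotation and treatment of reads shared by genes are not given in the sources used here. Barcodes with at least 1500 UMIs were kept and clustered with the Leiden algorithm (2000 variable genes, 40 components, resolution 1.5), leaving out 65 Ifitm and interferon genes. Clusters were named where at least 3 markers and 50% of a list were detected. Doublets were not removed. The members, lists and markers were chosen with earlier results of these data known.

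Raw counts were summed per library and cell type and fitted with edgeR 4.0.16 (quasi-likelihood, TMM, R 4.3.3) on stage and protocol over the atlas libraries, with Benjamini-Hochberg adjustment over all genes; cDC2-like cells were fitted for fold changes alone. Besides the members, the text names called interferon genes (all where at most 5 in a direction, otherwise the 3 with the largest change) and the 5 genes most correlated with each member. In data simulated from these sums, 36.3% to 98.9% of 4-fold and 1.09% to 38.1% of 2-fold changes were recovered, depending on the cell type and comparison. Alternatives were DESeq2 1.42.0, no filter, 3000 UMIs, mixed barcodes removed, types from each barcode's markers, single protocols and each library left out.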

Additional observations from a re-analysis of the deposited data

Results flagged for a closer look

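In 3 of the 36 groups of 4 to 10 libraries examined, 1 library lay apart by Dixon's criterion, which chance meets in about 1 in 20 groups. Ifitm1 in LSEC-like cells at onset was 30.1 CPM in D5 B and 8.33 to 11.3 CPM in the other libraries. Ifitm6 in the same cells was 5.94 CPM in D5 B and 0 to 0.490 CPM in the others. Ifitm2 in T-like cells at progression was 66.9 CPM in D25 A and 0.371 to 6.26 CPM in the others.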

How the results depend on the processing

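The number of member and cell type pairs called at progression against steady state outside cDC2 was 2 in edgeR, and 2 in DESeq2, with mixed barcodes removed and with types from each barcode's own markers. It was 6 without a filter on low counts, 0 with at least 3000 UMIs, 0 in protocol A and 4 in protocol B alone, and 0 to 3 with 1 library left out, the 0 being without D0 B. Against onset it was 0, 1 without a filter, and 0 to 0 with 1 library left out. Ifitm1 in cDC2-like cells at progression against steady state kept its direction, with 2.89 to 3.24 when 1 library was left out and 2.78 with the added Cd209d cluster, an alternative chosen after seeing the data, as were the single neutrophil clusters.

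Other signs turned, and the cause was not tested. Ifitm1 in cDC2-like cells against onset was -0.64, -1.50 in protocol A, 0.36 in protocol B and -1.12 to -0.23 with 1 library left out. At progression against steady state, Ifitm2 in neutrophil-like cells was 0.61 with 3000 UMIs, 0.30 in protocol A, 0.91 in cluster 18 and -3.76 to 0.13 with 1 library left out. Against onset, Ifitm2 was 0.11 in protocol A and 0.70 in cluster 18, and Ifitm6 was 0.35 in cluster 18. Ifitm6 in monocyte-like cells against steady state was 0.019 with types from each barcode's markers. In the same comparison Ifitm3 in LSEC-like cells was 0.90 in protocol A and -0.76 to 0.93 with 1 library left out, and in T-like cells 0.61 and -0.50 to 0.096. In cDC2-like cells Ifitm2 was 1.56 in protocol A and -1.70 to 1.71, and Ifitm3 0.39 in protocol A and -0.56 to 0.61, the ranges being with 1 library left out.

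Counts over all genes moved more. In neutrophil-like cells 145 genes were called by edgeR, 304 by DESeq2, 402 without a filter, 10 with 3000 UMIs and 12 in protocol A. Other counts in edgeR and DESeq2 were 5 and 54 in monocyte-like, 151 and 621 in LSEC-like, 591 and 1084 in BEC-like and 161 and 311 in T-like cells. Against onset they were 0 and 2 in monocyte-like, 0 and 40 in neutrophil-like, 12 and 91 in LSEC-like, 0 and 8 in BEC-like and 0 and 1 in T-like cells. No paired analysis was possible because the labels give no replicate numbers. Cluster 13 alone could not be fitted against steady state, where it had 15 and 19 cells.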
